A study of Rattus norvegicus with 35 samples.

Results

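The 10 genes described here belong to the circadian clock of the liver and its outputs: the activators Bmal1, Clock and Npas2, the repressors Per1, Per2 and Cry1, the nuclear receptors Nr1d1 and Nr1d2, and the output factors Dbp and Tef. The rule that picks them lists names and uses no measured value. All 10 were found, through 18 probe sets, among the 14217 genes and 31042 probe sets tested. Where a gene had several probe sets, the value given is that of the probe set with the highest mean score, and 6 of the 10 genes had only 1.

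Bmal1 protein pairs with Clock or Npas2 and switches on genes that carry an E-box, among them Per, Cry, Nr1d1, Dbp and Tef. Per and Cry proteins shut the pair off, and the Nr1d receptors repress Bmal1, Npas2, Clock and Cry1 through ROR elements, so each transcript rises and falls once a day. In rodent liver these rhythms are among the widest of any gene, and feeding can move them. Transcripts of Nr1d1 and Dbp therefore depend strongly on the hour at which a liver is taken.

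The livers came from individual Wistar Han IGS rats of a feeding study, in which exposure ran from gestation day 6 to postnatal day 92. Controls received 0 ppm (7 arrays). The other groups received a triazole fungicide: myclobutanil at 500 ppm (M500, 5 arrays) or 2000 ppm (M2000, 4), propiconazole at 500 ppm (P500, 3) or 2500 ppm (P2500, 4), and triadimefon at 500 ppm (T500, 5) or 1800 ppm (T1800, 4). These 32 arrays, 1 per animal and hybridised with liver RNA on Affymetrix rat arrays, were compared. A further 3 arrays, marked by the submitters as left out of their final analysis, hold no values and were not used. The sources used here do not give the hour of collection, the sex or the litters of the animals. The extraction protocol names testis, whereas the titles and the labelling protocol name liver.

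Each value is the authors' deposited score, 1 number per probe set and array. Array medians lay between 0.0053 and 0.0585, but the top of the score range differed between arrays. The hepatocyte gene Alb, at the 100th percentile on every array, scored from 4.76 to 9.01. The sources used here do not give the log base of the score, so a difference of scores is not a fold change. The liver label was checked on hepatocyte markers: the 4 of 5 that were measured ranked from the 99.7th percentile upward on every array. The 7 testis markers summed to between -1.07 and 7.31 per array, and the protamine gene Prm1 ran from -0.33 to 3.15. For none of the 10 clock genes did a relation with that sum pass within groups (Pearson r between -0.112 and 0.0683 and rho between -0.0759 and 0.0411 over 32 arrays, permutation test, adjusted p = 0.995 for all 10). RNA integrity was read as the 3′ minus 5′ score of the GAPDH and β-actin control probe sets (the 3′–5′ difference), which rises as the 5′ end of transcripts is lost. It averaged 1.30 ± 0.595 in controls (SD, n = 7), 1.21 ± 0.849 in M500 (n = 5) and 1.49 ± 0.374 in T1800 (n = 4), but between 0.519 and 0.694 in the other groups. On 9 arrays the GAPDH difference alone exceeded 0.9: controls 4 to 7, M500 replicates 1 and 5, and T1800 replicates 2 to 4. Animal numbers formed a possible batch, since controls 5 to 7 and T1800 replicates 2 to 4 were numbered above 3000 and the other 26 animals below.

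The upstream sequences of these genes show which clock elements lie close to the annotated starts. Entries of RefSeq, build GRCr8, were found for 9 of the 10 genes (11 entries). The 250 bases before each start were searched on both strands for the E-box CACGTG, the D-box TTATGTAA or TTACGTAA, and the ROR element core TAGGTCA. Each of the 4 sequences that held a motif had 1 match, and these 4 are shown whole, 5′ to 3′ on the gene's strand, with the match in capitals. The matches began 16 bases before the Bmal1 start, 192 before Per2, 191 before Nr1d1 and 198 before Tef. The windows are chr1:176766078-176766327 (plus strand) for Bmal1, chr9:99496994-99497243 (minus) for Per2, chr10:84229455-84229704 (minus) for Nr1d1 and chr7:115206577-115206826 (plus) for Tef.

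Bmal1: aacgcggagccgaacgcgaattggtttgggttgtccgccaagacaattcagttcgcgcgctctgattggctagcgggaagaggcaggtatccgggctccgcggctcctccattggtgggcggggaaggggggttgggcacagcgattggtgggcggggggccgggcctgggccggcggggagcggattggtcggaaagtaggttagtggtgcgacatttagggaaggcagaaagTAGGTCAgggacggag
Per2: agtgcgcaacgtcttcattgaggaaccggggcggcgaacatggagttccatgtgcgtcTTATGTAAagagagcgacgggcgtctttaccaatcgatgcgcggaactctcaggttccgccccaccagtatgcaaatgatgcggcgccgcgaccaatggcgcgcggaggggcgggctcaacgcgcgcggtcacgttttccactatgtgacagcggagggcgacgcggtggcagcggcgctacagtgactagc
Nr1d1: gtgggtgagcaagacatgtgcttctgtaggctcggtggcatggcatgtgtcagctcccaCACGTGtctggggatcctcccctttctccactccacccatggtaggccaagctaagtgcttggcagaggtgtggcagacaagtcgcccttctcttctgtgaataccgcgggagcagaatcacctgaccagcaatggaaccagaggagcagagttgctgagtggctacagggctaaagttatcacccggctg
Tef: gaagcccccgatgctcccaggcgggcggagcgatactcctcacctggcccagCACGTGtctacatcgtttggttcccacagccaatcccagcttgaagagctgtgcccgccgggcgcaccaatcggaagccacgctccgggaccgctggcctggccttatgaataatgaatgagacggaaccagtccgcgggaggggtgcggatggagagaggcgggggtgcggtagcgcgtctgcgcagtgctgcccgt

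Of 33469 rat promoter windows of the same length, 5.59% held the E-box, 0.932% a D-box and 2.26% the ROR core. The second Nr1d1 entry and the entries of Clock, Npas2, Per1, Nr1d2 and Dbp held none of these letters, which says nothing on sites farther away.

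Across the 7 groups, clock gene expression was not called different for any of the 10 genes, whereas 6.76% of all probe sets were (limma moderated F test, Benjamini-Hochberg adjusted p under 0.05). At an unadjusted p under 0.05 in limma the count was 1 of 10, Tef, a PAR bZIP output factor (limma adjusted p = 0.132), while 29.1% of all probe sets passed at that level. Nr1d1 and Nr1d2, repressors of the Bmal1 gene, had adjusted p values of 0.828 and 0.753 in that limma test. Lower transcript per cell and fewer cells that hold the transcript cannot be told apart in whole liver.

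Against the controls, no clock gene passed the limma test in any of the 6 treated groups. The share of all probe sets called was 0% for M500, 0.0644% for M2000, 0% for P500, 0.254% for P2500, 0.00966% for T500 and 1.17% for T1800, and the clock genes' counts of 0 are read against those shares. The shares turn on single controls: without control 3, limma called 4464 probe sets at T500 in place of 3 and 3013 at M2000 in place of 20. At unadjusted p under 0.05 the count of clock genes was 0 for M500, 0 for M2000, 1 for P500, 1 for P2500, 2 for T500 and 0 for T1800. The share of all probe sets at that level was 4.13%, 24.2%, 9.23%, 19.9%, 29.3% and 10.8% in the same order, so each count lay near or below its background. The gene at P500 and P2500 was Tef, and those at T500 were Npas2 and Dbp. The lowest and highest differences over the 10 genes were -0.07 and 0.19 at M500, -0.39 and 0.24 at M2000, -0.33 and 0.28 at P500, -0.37 and 0.21 at P2500, -0.37 and 0.14 at T500, and -0.09 and 0.20 at T1800. All 6 comparisons use the same 7 controls.

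**Figure D1:**
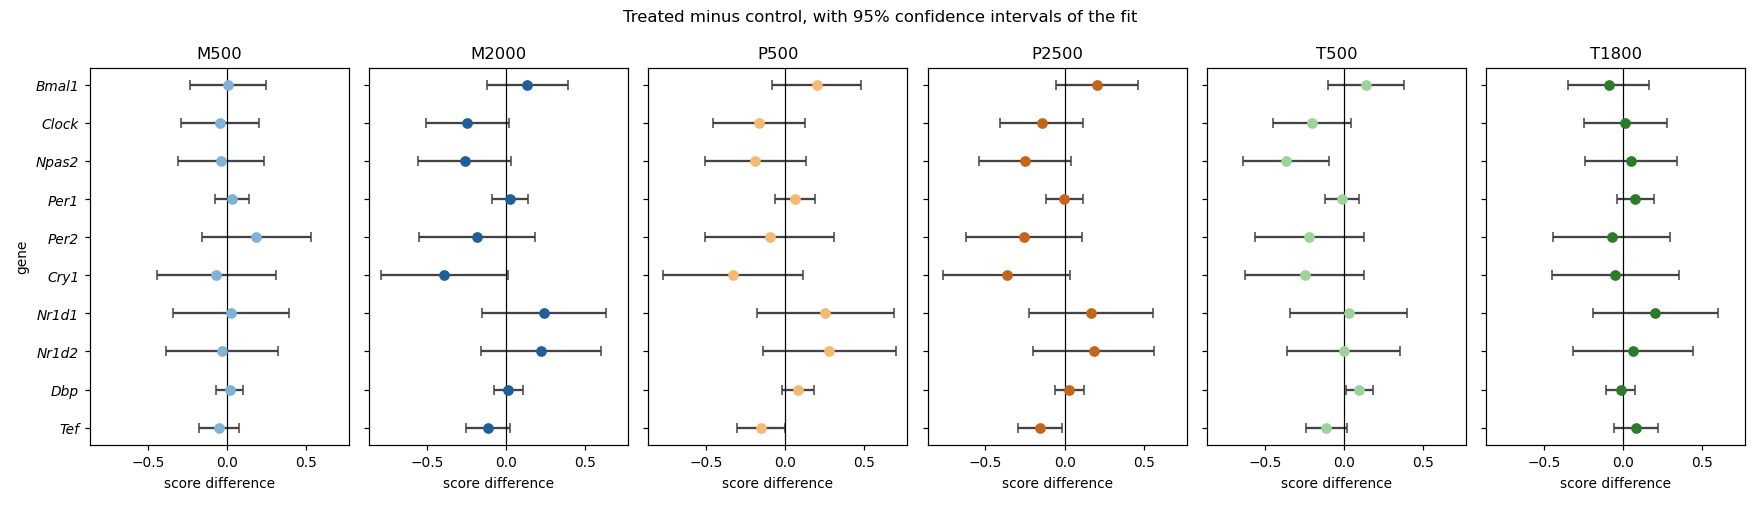
Difference of mean score, treated minus control, for each clock gene (rows) in each treated group (panels); points are differences and bars 95% confidence intervals of the fit. No interval passed the adjusted threshold, and the lowest differences, for Cry1 at M2000 (-0.39), Cry1 at P2500 (-0.37) and Npas2 at T500 (-0.37), had adjusted p values of 0.218, 0.287 and 0.0959 in limma.

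Npas2, the partner that can replace Clock beside Bmal1, gave the smallest adjusted p among these differences. Npas2 scores in T500 were 0.88, 0.75, 0.53, 0.71 and 0.64 (replicates 1 to 5), and in controls 0.74 at the lowest, 1.05 at the median and 1.41 at the highest. The groups overlapped. The difference was -0.37 (SE 0.133, 95% interval -0.64 to -0.09, limma adjusted p = 0.0959). Without control 3 it was -0.42 (adjusted p = 0.0395), and without M500 replicate 1, which enters only through the shared spread, the adjusted p was 0.0488. The 3′–5′ difference was lower in T500 than in controls (0.519 against 1.30), and with it as a covariate the Npas2 difference was -0.03 (adjusted p = 1).

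Dbp, the output factor with a daily rhythm of wide amplitude in rodent liver, had scores from -0.20 to 0.23 over the 32 arrays. Its probe set ranked between the 22.5th and the 64.8th percentile of the arrays (median 48.4), a level well below that of most other clock genes. Whether the narrow range reflects that level or the hour of collection was not tested. Dbp averaged -0.03 ± 0.0919 in controls (SD, n = 7) and 0.07 ± 0.0929 in T500 (n = 5). The T500 scores were 0.03, 0.07, 0.23, 0.02 and 0.01 (replicates 1 to 5). Only replicate 3 lay above the control range of -0.20 to 0.08, and the others lay within it. The difference was 0.10 (SE 0.0418, 95% interval 0.01 to 0.18, limma adjusted p = 0.132).

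The repressors Per1, Per2 and Cry1 did not pass in any of these comparisons. Per1 group means ran from 0.29 in T500 to 0.38 in T1800, the narrowest set among the repressors. Per2 means ran from 0.41 in P2500 to 0.85 in M500, with SDs within groups of 0.052 to 0.444. Cry1 means were 1.11 ± 0.290 in controls (n = 7), 1.04 ± 0.449 in M500 (n = 5) and 1.06 ± 0.446 in T1800 (n = 4). In M2000, P500, P2500 and T500 the Cry1 means were 0.72, 0.77, 0.74 and 0.86. The 4 groups with the lower Cry1 means were also those with the lower 3′–5′ differences. With the 3′–5′ difference in the limma fit, the 6 Cry1 differences ran from -0.13 to 0.07 (adjusted p from 0.819 to 1), against -0.39 to -0.05 without it.

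Between the 2 levels of a compound, no clock gene passed at M2000 against M500 (0% of probe sets called) or at P2500 against P500 (0%), with 0 of 10 genes at unadjusted p under 0.05 in each by limma (11% and 1.18% of all probe sets). T1800 against T500 was different in scale, since 24.8% of all probe sets were called, 6927 of 7690 of them higher in T1800. With RNA integrity as a covariate, 88 probe sets were called. In the main fit, which leaves integrity out, 1 of the 10 clock genes was called higher, Npas2. The count of clock genes at unadjusted p under 0.05 in that main fit was 3, with Tef and Dbp, against 41.1% of all probe sets. A count of 1 in 10 lies below that background of 24.8%.

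Npas2 scores in T1800 were 0.91, 1.20, 0.85 and 1.51 (replicates 1 to 4), against 0.53 to 0.88 in T500. By score the 2 groups overlapped through T1800 replicate 3 and T500 replicate 1. By percentile of the array, T1800 replicates 1 and 3 (82.76 and 82.21) lay below T500 replicates 1 and 2 (84.59 and 82.8). The difference was 0.42 (SE 0.152, 95% interval 0.10 to 0.73, limma adjusted p = 0.0468). The call was lost when any of 18 of the 32 arrays was left out: control 6, all 4 arrays of M2000, all 3 of P500, all 4 of P2500, T500 replicates 2 to 5, and T1800 replicates 2 and 4. Without T1800 replicate 4 the difference was 0.28 (adjusted p = 0.194), and over all 32 such fits the adjusted p ran from 0.0212 to 0.194.

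The 3′–5′ difference moved with that Npas2 result, being 1.49 ± 0.374 in T1800 (n = 4) and 0.519 ± 0.0479 in T500 (n = 5). With that reading of integrity as a covariate in limma, the Npas2 difference was 0.0014 (adjusted p = 0.996). It was 0.20 with the animal number series as a block (limma adjusted p = 0.552) and 0.27 after quantile normalisation (adjusted p = 0.104). In animals numbered below 3000, where T1800 keeps replicate 1 alone, it was 0.21. Of the 3 Kupffer cell markers measured (5 listed), Cd163 and Clec4f were called higher in T1800, beside 24.8% of all probe sets. The 3 summed to between 4.22 and 5.33 in T1800 and between 1.88 and 3.95 in T500. The 4 hepatocyte markers, of which 0 were called, also summed higher in T1800 (19.75 to 25.37) than in T500 (17.53 to 19.68). The part of either marker set in the Npas2 result was not tested.

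Tef and Dbp missed the threshold in T1800 against T500. Tef scores were 0.72, 0.49, 0.44 and 0.28 in T1800 and 0.28, 0.25, 0.29, 0.27 and 0.35 in T500, so 3 of the 4 T1800 animals lay above every T500 animal. The Tef difference was 0.19 (SE 0.0722, 95% interval 0.04 to 0.34, limma adjusted p = 0.0526). Without control 1, 2 or 7, M500 replicate 1 or T1800 replicate 4 it passed, with adjusted p values of 0.0331, 0.0492, 0.0463, 0.0384 and 0.0237. Dbp differed by -0.11 (SE 0.0479, adjusted p = 0.0784), and passed without control 7 (-0.11, adjusted p = 0.0498) and without T1800 replicate 1 (-0.15, adjusted p = 0.0316).

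A single T1800 animal, replicate 1, had both the highest Tef (0.72) and the highest Nr1d1 (1.0) of all 32. Its 3′–5′ difference was 1.17, against 1.16 in T1800 replicate 3, but its GAPDH difference alone was 0.73. It is thus the only T1800 animal left when the 9 arrays of high GAPDH difference are set aside. Among animals numbered below 3000 it is likewise the only one of T1800. Because T1800 rests on that 1 animal in both fits, only the sizes of its differences from controls are given. For Nr1d1 and Tef they were 0.99 and 0.38 without the high arrays, and 1.03 and 0.38 below 3000. With all 4 T1800 animals the same differences were 0.20 (limma adjusted p = 0.794) and 0.08 (adjusted p = 0.768).

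At the matched level of 500 ppm the 3 compounds, all triazoles but differing in a nitrile (myclobutanil), a cyclic ketal (propiconazole) or a ketone group (triadimefon), were compared in 3 pairs, with p values adjusted over all probe sets of a pair. No clock gene and 0% of probe sets were called in M500 against P500, in M500 against T500 (0%) or in P500 against T500 (0%). By limma the counts at unadjusted p under 0.05 were 0, 2 and 0, beside 4.29%, 19.1% and 2.49% of all probe sets. Those 2 were Npas2, at 1.03 in M500 and 0.70 in T500 (difference 0.33, 95% interval 0.04 to 0.62, adjusted p = 0.244), and Per2, at 0.85 and 0.44 (difference 0.40, 95% interval 0.03 to 0.78, adjusted p = 0.244). For Nr1d1 the intervals were -0.69 to 0.23 for M500 minus P500, -0.40 to 0.39 for M500 minus T500 and -0.24 to 0.68 for P500 minus T500. The intervals allow Nr1d1 differences of those sizes in either direction. The high levels differ in ppm between compounds and were not compared.

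**Figure D2:**
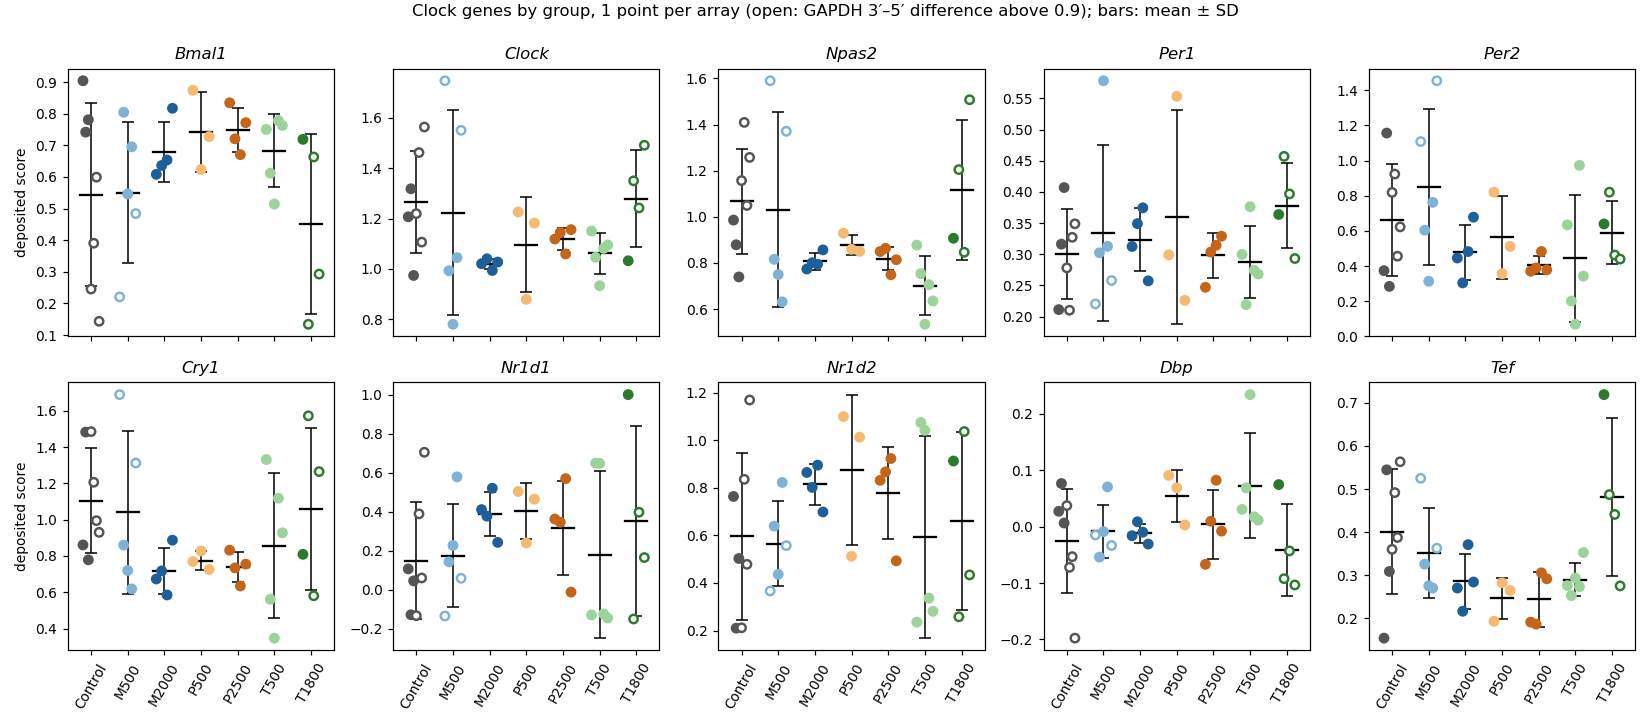
Deposited score of each clock gene (panels, y axis) by group (x axis), 1 point per array, with group means and SDs as bars; open points are the 9 arrays with a GAPDH 3′–5′ difference above 0.9. Nr1d1 and Nr1d2 in T500 split into 2 high and 3 low animals, and Bmal1 was lowest on open points, with 0.13 in T1800 replicate 2 and 0.14 in control 7.

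Animals of the same group stood far apart for the Nr1d receptors, Cry1 and Per2. Nr1d1 within-group SD was 0.317, wider than that of 99.6% of the 4112 genes whose mean score lay within 0.25 of its own. The same percentile was 98.3 for Nr1d2, 98.3 for Per2 and 98.1 for Cry1. It was 92.1 for Bmal1, 91.5 for Npas2, 77.1 for Clock, 73 for Dbp, 71.6 for Tef and 56.7 for Per1. The median within-group SD over all genes was 0.0884.

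Nr1d1 encodes REV-ERBα, a heme-binding repressor. In T500 the Nr1d1 scores were -0.13, 0.65, 0.65, -0.13 and -0.15 (replicates 1 to 5). Replicates 2 and 3 were high and the others low, a range wider than that of the group means, which ran from 0.15 in controls to 0.40 in P500. Controls gave -0.13 at the lowest, 0.06 at the median and 0.70 at the highest. M500 gave -0.14, 0.14, 0.23, 0.58 and 0.06, and T1800 gave 1.0, -0.15, 0.40 and 0.16. The 7 lowest scores, from -0.15 to -0.13, lay close together and were found in controls, M500, T500 and T1800, while the lowest score in M2000, P500 and P2500 was -0.01.

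Nr1d2, which encodes the related receptor REV-ERBβ, followed the same animals. In T500 the Nr1d2 scores were 0.24, 1.07, 1.04, 0.34 and 0.28, high again in replicates 2 and 3. Over the 32 arrays, as deviations from group means, Nr1d1 and Nr1d2 correlated with r = 0.893 and rho = 0.896 (each p = 1e-05, the smallest that 100000 permutations of arrays within groups can give, adjusted p = 8e-05 over 8 pairs and both measures). Without the 2 arrays farthest out on Nr1d1, r was 0.912. It was 0.924 in the 22 usable arrays of low GAPDH difference, 0.911 in 25 arrays numbered below 3000 and 0.949 in the 6 numbered above 3000 (exact permutation p = 0.0556, adjusted p = 0.333). The second probe set of Nr1d2 gave r = 0.797 with Nr1d1 and the third, dimmer probe set 0.552.

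Cry1, a core repressor whose gene carries ROR elements in mammals, ran opposite to both receptors. In T500 Cry1 scored 1.33, 0.56, 0.35, 1.12 and 0.93, so the animals high in Nr1d1 were the lowest in Cry1. In T1800 Cry1 scored 0.81, 1.57, 0.58 and 1.26, and the animal lowest in Nr1d1, replicate 2, was the highest in Cry1. Over the 32 arrays r was -0.713 for Cry1 with Nr1d1 (rho -0.714, permutation p = 0.00056 for r and 0.00014 for rho, adjusted p = 0.00504 and 0.00315 over 45 pairs and both measures) and -0.717 with Nr1d2 (rho -0.718, permutation p = 0.00019 and 0.00029, adjusted p = 0.00342 and 0.00373). Without the 2 arrays farthest from the median of Cry1, r was -0.652 and -0.704. These 45 pairs were added after the data were seen.

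That opposition had the same sign in every subset tried. For Cry1 with Nr1d1, r was -0.782 without the high GAPDH arrays (22 arrays) and -0.783 in animals numbered below 3000 (25 arrays). It was -0.738 on the 9 high arrays alone (exact permutation p = 0.0417, adjusted p = 0.469) and -0.64 in the 6 animals numbered above 3000 (exact permutation p = 0.194, adjusted p = 0.933). With the 3′–5′ difference taken out, r was -0.8. Quantile normalisation gave -0.818.

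Per2, the repressor that partners Cry1 in the nucleus, moved with Cry1. In M500 Per2 scored 1.11, 0.60, 0.31, 0.76 and 1.45, and Cry1 scored 1.69, 0.86, 0.72, 0.62 and 1.31. Replicates 1 and 5 were high in both, and both are arrays of high GAPDH difference. Over the 32 arrays r was 0.712 (rho 0.717, permutation p = 0.00055 and 0.00039, adjusted p = 0.00504 and 0.00439; 0.693 without the 2 farthest). It was 0.737 without the high arrays (adjusted p = 0.111), 0.767 below 3000, 0.621 in the 6 above 3000 (exact permutation p = 0.278, adjusted p = 0.933) and 0.62 with the 3′–5′ difference taken out. The relation of Per1 and Per2 did not pass (r = -0.432, rho = -0.319, permutation p = 0.0524 and 0.122, adjusted p = 0.136 and 0.217).

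**Figure D3:**
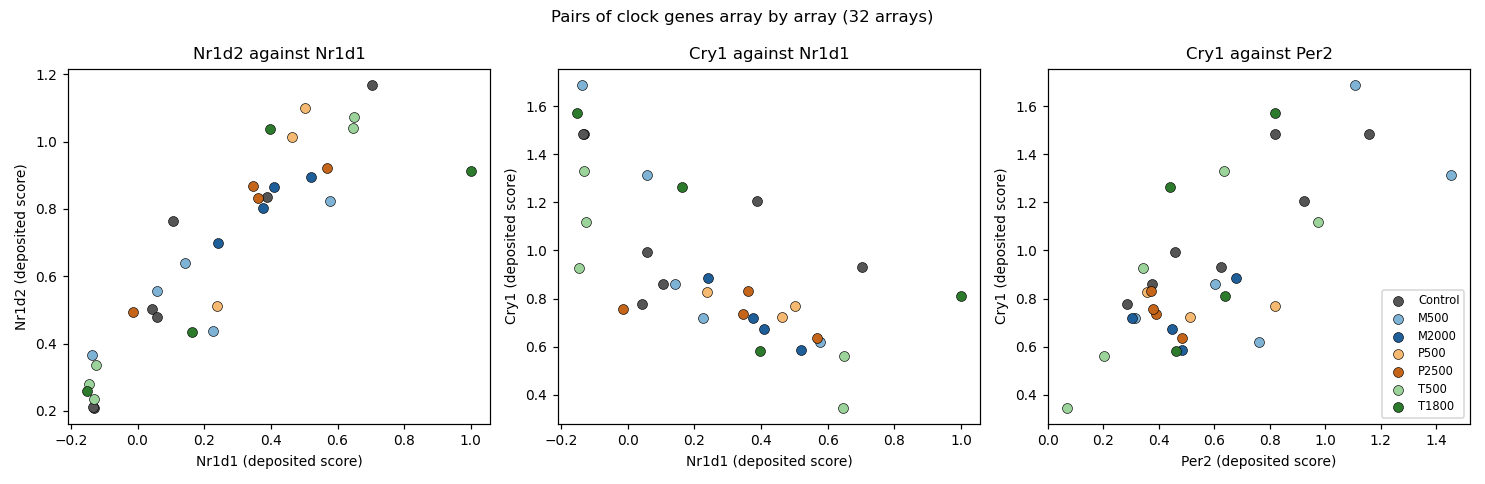
Deposited scores of Nr1d2 against Nr1d1, Cry1 against Nr1d1 and Cry1 against Per2, 1 point per array, coloured by group (32 arrays). Nr1d2 rose with Nr1d1 (within-group r = 0.893), Cry1 fell with Nr1d1 (-0.713) and Cry1 rose with Per2 (0.712), and T500 animals lay at both ends of the Nr1d1 axis.

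Bmal1, the activator with the ROR core printed above, had no relation with Nr1d1 that passed. Within groups r was 0.0318 (rho 0.0209, permutation p = 0.891 and 0.922, adjusted p = 0.983 for both) and 0.0842 without the 2 farthest. It was -0.436 without the high GAPDH arrays (adjusted p = 0.142). Bmal1 and Dbp gave 0.297 (rho 0.213, permutation p = 0.193 and 0.313, adjusted p = 0.28 and 0.417), and Bmal1 and Cry1 -0.386 (rho -0.332, permutation p = 0.0842 and 0.136, adjusted p = 0.168 and 0.217). Both changed sign without the high GAPDH arrays, to -0.572 (adjusted p = 0.0637) and 0.436 (adjusted p = 0.133), and with the 3′–5′ difference taken out they were -0.0243 and 0.317. Dbp and Tef, which share a binding site in target genes, gave 0.0018 (rho -0.115, permutation p = 0.994 and 0.575, adjusted p = 0.994 and 0.707).

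Bmal1 followed the 3′–5′ difference. Bmal1 in controls 4 to 7, the arrays of high GAPDH difference, scored 0.25, 0.39, 0.60 and 0.14, and in controls 1 to 3 it scored 0.90, 0.74 and 0.78. The high arrays were lower without overlap. Over 32 arrays r was -0.861 (rho -0.907, each permutation p = 1e-05, adjusted p = 0.0001 over 10 genes and both measures; -0.827 without the 2 farthest). It was -0.598 in the 22 arrays of low GAPDH difference (permutation test, adjusted p = 0.0361). On the 9 arrays of high GAPDH difference it was -0.951 (exact permutation p = 0.00347, adjusted p = 0.0694). It was -0.824 in the 25 animals below 3000 and -0.983 in the 6 above (exact permutation p = 0.0278, adjusted p = 0.278).

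Npas2 and Clock ran the other way. Against the 3′–5′ difference r was 0.849 for Npas2 (rho 0.759, permutation p = 0.00016 and 0.00069, adjusted p = 0.00107 and 0.00345) and 0.781 for Clock (rho 0.54, permutation p = 0.0013 and 0.0194, adjusted p = 0.0052 and 0.0553). In animals below 3000 these were 0.863 and 0.746. In the 22 arrays of low GAPDH difference they were -0.00552 and -0.0518. The relation thus rested on the 9 arrays of high GAPDH difference and the contrast with them. Without the 2 farthest, r was 0.794 and 0.613. Cry1 gave 0.598 (rho 0.475, permutation p = 0.00549 and 0.0301, adjusted p = 0.0183 and 0.0753), and 0.23 in the 22 arrays. For Nr1d1 and the main Nr1d2 probe set r was -0.128 and -0.101 (rho -0.0836 and -0.106, permutation p = 0.513 and 0.593 for r, adjusted p = 0.635 for both).

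**Figure D4:**
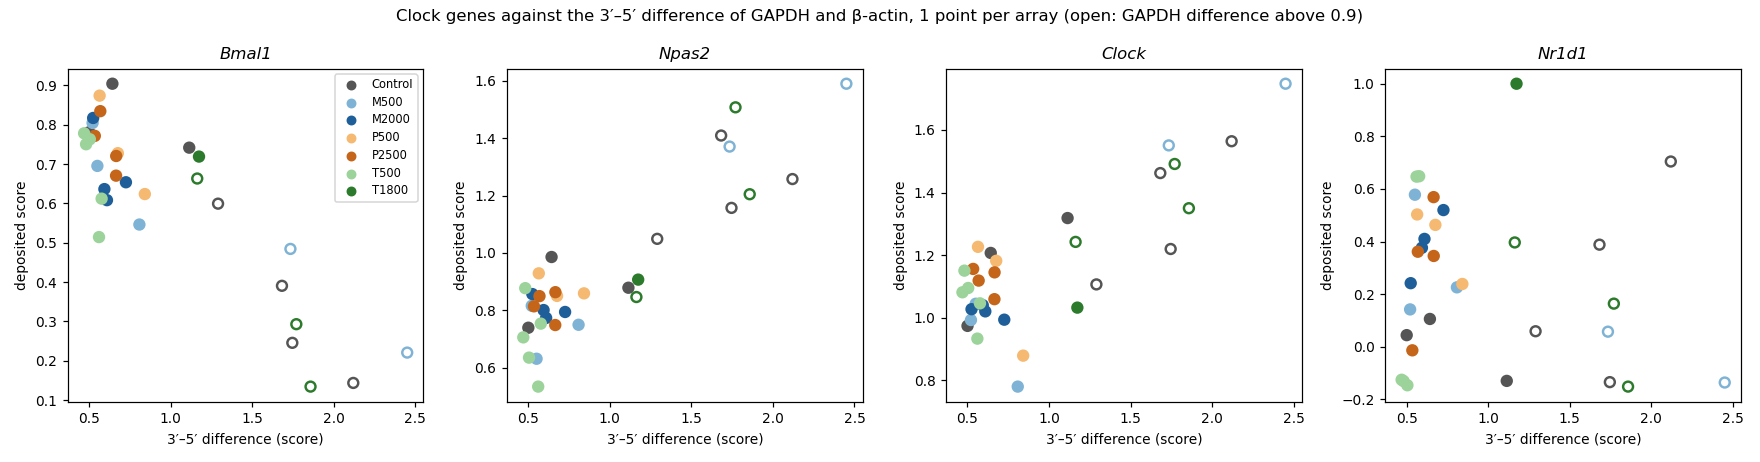
Deposited scores of Bmal1, Npas2, Clock and Nr1d1 (y axis) against the integrity reading from GAPDH and β-actin, the 3′–5′ difference (x axis), 1 point per array, coloured by group; open points have a GAPDH difference above 0.9. Bmal1 fell along the axis (within-group r = -0.861), Npas2 and Clock rose on the open points (0.849 and 0.781), and Nr1d1 had r = -0.128.

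The probe sets of a gene did not always move together along that axis. Clock has 4: the main probe set gave r = 0.781, the others 0.359, -0.855 and -0.653. The Clock probe set at -0.855 was called lower in T1800 than in T500 (-0.32, SE 0.086, limma adjusted p = 0.0139), while the main Clock probe set differed by 0.22 (adjusted p = 0.228). For Tef, the second probe set gave 0.855 and was called higher in T1800 (0.29, SE 0.096, adjusted p = 0.0314), the main gave 0.451 and the third 0.0516. The second Nr1d2 probe set gave -0.465 (rho -0.427, permutation p = 0.00582, adjusted p = 0.0116 over 18 probe sets), while the main gave -0.101 and the third 0.028. With the 3′–5′ difference taken out, that second probe set still gave r = 0.84 with Nr1d1. The second Per2 probe set gave 0.658 (rho 0.585, permutation p = 0.00319, adjusted p = 0.0082), against 0.446 for the main. For Clock, Tef, Nr1d2 and Per2 the choice of probe set thus sets the sign or the call.

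Bmal1 with Npas2 and with Clock changed sign once the 3′–5′ difference was taken into account. Bmal1 and Npas2 gave r = -0.629 (rho -0.623, permutation p = 0.00432 and 0.00411, adjusted p = 0.0173 for both; -0.641 without the 2 farthest). The same pair gave 0.519 in the 22 arrays of low GAPDH difference (adjusted p = 0.0899) and 0.381 with the 3′–5′ difference taken out. Bmal1 and Clock gave -0.502 (rho -0.412, permutation p = 0.0221 and 0.0596, adjusted p = 0.0707 and 0.136), and 0.576 and 0.536 under those same settings. Clock and Npas2 were positive throughout, with r = 0.851 over 32 arrays (rho 0.776, permutation p = 5e-05 and 0.00023, adjusted p = 0.0015 and 0.00345), 0.432 in the 22 arrays (adjusted p = 0.261) and 0.57 with the difference taken out.

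With RNA integrity as a covariate, the wide spread was kept by some genes and not by others. The variance left within groups was 26.9% for Bmal1, 29.1% for Npas2 and 40.7% for Clock, against 66.9% for Cry1, 83.4% for Per2, 102% for Nr1d1 and 103% for Nr1d2, where the lost degree of freedom takes the value past 100. The percentile among genes of like score became 64.2 for Bmal1, 63.8 for Npas2 and 56.8 for Clock. It was 99.7 for Nr1d1, 99.3 for Nr1d2, 99 for Per2 and 98.1 for Cry1.

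**Figure D5:**
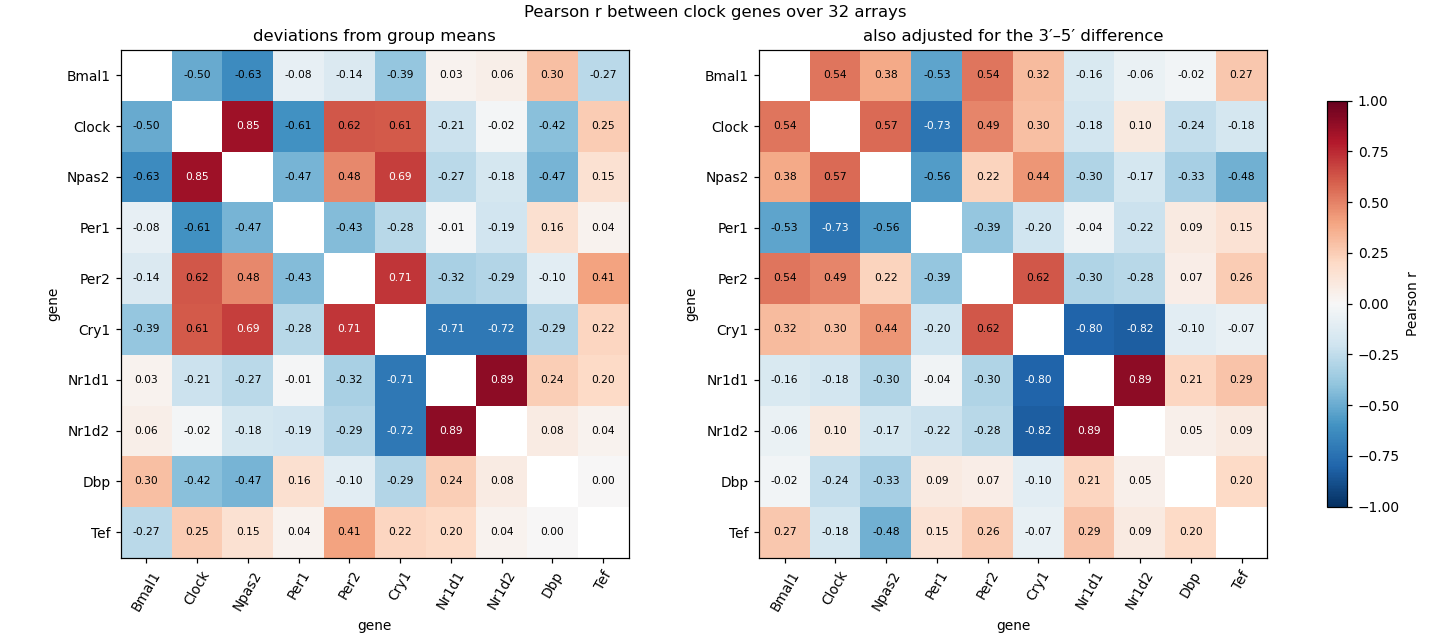
Pearson r for the 45 pairs of clock genes over 32 arrays, as deviations from group means (left) and with the 3′–5′ difference also taken out (right); red is positive and blue negative. Bmal1 with Npas2 and with Clock was negative on the left (-0.629 and -0.502) and positive on the right (0.381 and 0.536), while the 3 pairs among Nr1d1, Nr1d2 and Cry1 kept their signs.

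Of the 45 pairs, 11 passed over the 32 arrays (6 positive and 5 negative) and 10 with the 3′–5′ difference taken out. In the 22 arrays of low GAPDH difference 3 passed, and in the 9 of high GAPDH difference 0. The animal number, taken as a rank, was set against each gene as the only order of animals in the labels. No clock gene passed: the strongest was Dbp, with r = -0.43 (rho -0.402, permutation p = 0.0433 and 0.0415, adjusted p = 0.433 for both over 10 genes) and -0.23 without the 2 farthest.

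Other clock genes were counted from a list of 16, of which 13 were measured. Across the 7 groups 1 of 13 was called, beside 6.76% of all probe sets: Csnk1d, a kinase that marks Per proteins for decay (limma adjusted p = 0.0315), and in the 6 comparisons with controls 0 were called. The counts at unadjusted p under 0.05 by limma were 1 for M500, 4 for M2000, 1 for P500, 4 for P2500, 4 for T500 and 2 for T1800, near or little above the shares of all probe sets given for those comparisons. In T1800 against T500, 4 of 13 were higher and 0 lower, where 24.8% of all probe sets were called and 6927 of those 7690 were higher: Csnk1d (1.89 against 1.13), Timeless (0.00 against -0.24), the corepressor deacetylase Hdac3 (0.99 against 0.78) and the repressor Cry2 (0.68 against 0.48). Within groups, r with Nr1d1 lay between -0.245 and 0.226 for 11 of the 13. The other two, named after their values were seen and with no test, were Rora, which activates through the ROR element that Nr1d1 represses (-0.629), and Hlf, a relative of Dbp and Tef (-0.412).

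Liver genes with a daily rhythm or an answer to feeding or glucocorticoid formed a list of 22, of which 20 were measured. Across groups 4 of 20 were called, beside 6.76% of all probe sets: Por, Alas1, Fkbp5 and Tsc22d3. Against controls, calls occurred in T1800, 2 higher and 0 lower, beside 1.17% of all probe sets: Alas1, the first enzyme of heme synthesis, at 3.64 against 2.55 (adjusted p = 0.000817), and Por, the reductase that supplies cytochromes P450, at 2.41 against 1.26 (adjusted p = 0.000227). In the 5 other comparisons with controls limma called 0. At unadjusted p under 0.05 it gave 3, 3, 1, 6 and 4 of 20 for M500, M2000, P500, P2500 and T500. The share of all probe sets at that level was 4.13%, 24.2%, 9.23%, 19.9% and 29.3% in the same order. In T1800 against T500, 8 of 20 were higher and 0 lower, beside the same 24.8%, mostly higher. The 3′–5′ difference was 1.49 in T1800 and 0.519 in T500, and its part in the counts of both lists was not tested. The 6 of smallest p were Alas1, Por, the glucocorticoid targets Fkbp5 and Tsc22d3, the fasting-responsive Igfbp1 and the fatty acid elongase Elovl3, whose scores lay between the 0.79th and 7.08th percentile of each array.

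The genes most like a clock gene over the 32 arrays were ranked by within-group r, as a description. The highest for Dbp were Grk3 (0.773), Rasl11b (0.733), Foxa3 (0.674), Dusp6 (0.644) and Ap5b1 (0.631), and the lowest Cenpn (-0.833), Etfbkmt (-0.73), Txnl4b (-0.68), Rbm12b (-0.671) and Zscan12 (-0.662). The highest for Bmal1 were Cdc37l1 (0.934), Dhx32 (0.931), Slc35b1 (0.921), C1h6orf120 (0.92) and Ccdc91 (0.92), and the lowest Rbm27 (-0.918), Gatad2b (-0.905), Taf3 (-0.898), Ankrd11 (-0.894) and LOC102553868 (-0.89). For Bmal1 28.4% of all genes had an r beyond 0.5 in size, against 3.65% for Dbp. With the 3′–5′ difference taken out, these shares were 18.8% and 1.29%. The 5 highest for Bmal1 then had r from 0.676 to 0.792, and the 5 lowest from -0.694 to -0.478. For Nr1d1, ranked after the data were seen, the share was 1.32%, and 2.71% with the 3′–5′ difference taken out. Without that adjustment its highest were Hsd17b2 (0.767), Sdr42e1 (0.711), Dcaf15 (0.68), P2rx4 (0.669) and Unc119 (0.659). The lowest for Nr1d1 were Elovl6 (-0.734), Akr1c1 (-0.669), Tmem38b (-0.651), Zfp955a (-0.639) and Rora (-0.629).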

How the data were processed

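The deposited values are the authors' scores, 1 per probe set and array, whose summarisation, normalisation and log base the sources used here do not give. The planned test assumed log2 values; it was applied to the scores as deposited. After 57 control probe sets were set aside, 31042 probe sets entered 1 linear model of the 7 groups (limma 3.58.1, R 4.3.3; 25 residual degrees of freedom), two-sided, with Benjamini-Hochberg adjustment within a comparison and a threshold of 0.05. The platform annotation gave 1 symbol to 20826 probe sets, several to 436 and none to 9780. Correlations used deviations from group means and 100000 permutations of arrays within groups, two-sided, with exact enumeration under 10 arrays (Python 3.11.15, numpy 2.4.6, scipy 1.17.1). A group left with 1 array in a subset drops out of the correlations and stays in the linear model. All 10 clock genes were named in every group; of the context lists, at most 6 genes past the threshold per comparison, smallest p first. The genes and lists were chosen with earlier results of these data known. Arrays are biological replicates per the series' design text; precision is limited by their number. The fit and the estimate of r within groups were tested on simulated data. The permutation p values were not. The alternatives were leaving out the dimmest 40% of probe sets, quantile normalisation, number series as a block or each alone, the 3′–5′ difference as a covariate, removal of the 9 high arrays, a trended robust fit, only the 2 groups compared, a replicate block, all probe sets of a gene averaged, and each array left out.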

Additional observations from a re-analysis of the deposited data

Results flagged for a closer look

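Per1 in M500 replicate 3 was 0.578, apart from the other 4 animals of that group at 0.220 to 0.313. Per2 in P2500 replicate 3 was 0.483, apart from the other 3 at 0.371 to 0.390. Dbp in T500 replicate 3 was 0.234, apart from the other 4 at 0.0114 to 0.0686. These are 3 of 60 combinations of gene and group, and chance alone marks about 1 in 20 of them.

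The Npas2 difference between the high and the low level of triadimefon was 0.4152 (limma adjusted p = 0.0468). Among the main probe sets of the clock genes it was the single difference between groups past the threshold. Other probe sets of Clock and Tef passed in the same comparison (limma adjusted p = 0.0139 and 0.0314).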

How the results depend on the processing

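Fits without the high GAPDH arrays or on animals below 3000 leave 1 T1800 animal, so their counts involving T1800 are not given here. In T1800 against T500, 1 clock gene was called, beside 24.8% of all probe sets. The count was 0 with the 3′–5′ covariate (88 of 31042 probe sets called), with quantile normalisation and with the animal number block. It was 2 with the replicate block (Npas2 and Dbp, 8386 probe sets called), with trend and robust and with the mean of all probe sets. In T1800 against controls it was 0 in the main fit and the other alternatives. Across groups it was 0, beside 6.76% of all probe sets, and 1 (Tef) with the mean of probe sets (limma adjusted p = 0.0392). Leaving out each array gave 0 to 3 in T1800 against T500, 0 to 1 across groups and 0 to 1 in T500 against controls. The other counts of clock genes stayed at 0 in every alternative run. The correlation of Bmal1 and Npas2 reversed to 0.519 and 0.381, and that of Bmal1 and Clock to 0.536, when the high arrays were removed or the covariate used. Bmal1 with Cry1 (0.436) and with Dbp (-0.572), which had not passed, also changed sign without the high arrays. Single differences kept their direction and side of the threshold in 4760 cases; 248 uncalled ones changed sign, 19 passed and 23 were lost. The cause was not tested.

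Counts of probe sets called moved more. Across groups the count was 2099, from 95 (number block) to 4358 (without control 3). For T1800 against T500 it was 7690, from 88 (covariate) to 9421 (without M500 replicate 1). For T1800 against controls it was 362, with 13 above 3000 and 254 to 502 with each array left out. Against controls, P2500 gave 79, from 8 to 1030, M2000 20, from 0 to 3013, and T500 3, from 0 to 4464. M500 reached 8, P500 2 and M500 against T500 2, each from 0.

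Replicate numbers did not pair the arrays: same-numbered arrays of different groups correlated from -0.666 to 0.596 (median -0.0101, 24 of 76 pairs above 0.1), and 4 of 30 arrays correlated best with one of their own number. The replicate block otherwise changed no count of clock genes.

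Simple limits remain: groups of 3 to 7 animals, an unknown score scale, 1 chosen probe set per gene, and no hour of collection. The 3′–5′ difference and animal number are unequal between groups. Relations with the 3′–5′ difference were not rerun on quantile-normalised scores. All 6 animals numbered above 3000 are among the 9 arrays of high GAPDH difference.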
